A study of Homo sapiens with 9 samples.

Results

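The comparison described here is between U2OS cells whose RNA polymerase II carried a shortened tail, HaloTag 25R, and U2OS cells with a tail of the human length, HaloTag 52R. Cells with at least 500 detected genes and at most 20% mitochondrial UMIs were taken from both single-cell libraries. This left 3483 cells of HaloTag 25R and 3705 cells of HaloTag 52R, together 7188 of 7378 barcodes in the pair and 20942 in the 6 libraries of the series. U2OS is a human osteosarcoma line that grows attached. In every library the largest polymerase subunit, RPB1, was a tagged copy, and every culture, the 52R cells included, had been kept for 6 days in α-amanitin at 1 µg per ml, a toxin that blocks RNA polymerase II. The genotypes were HaloTag-RPB1-25R and HaloTag-RPB1-52R, where HaloTag is a protein tag that forms a covalent bond with added dyes and 25R or 52R is the number of repeats in the carboxy-terminal domain (CTD) of RPB1. All cells were grown in DMEM with 10% serum. The same pair of lengths with the fluorescent protein Dendra2 in place of HaloTag (Dendra2 25R, 3121 cells, and Dendra2 52R, 2747 cells) is set beside it, and since the series' design text dates its sequencing apart from that of the HaloTag libraries, tag and sequencing date cannot be told apart. The labels do not say whether a line is 1 clone or which promoter drives the tagged RPB1, and untagged cells were not analysed here. Each genotype is 1 library, so a difference between 2 libraries can come from the CTD or from anything else that set these cultures apart, and no test between them is possible. All comparisons below are effect sizes.

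The CTD of RPB1 is a long flexible array of a heptad repeat. During transcription its serines are phosphorylated by kinases that act at initiation and elongation, and the marked repeats bind capping, splicing and polyadenylation factors. The CTD also takes part in the gathering of polymerases at active genes, and its length has been studied as a determinant of how often and how strongly genes fire in bursts.

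The 25R library held 58442223 UMIs with a median of 16020 UMIs and 4187 genes per cell, and the 52R library 53863648 with a median of 13567 UMIs and 3854 genes. Only 4 barcodes occurred in both. Markers of the line were present: 9 of 12 mesenchymal and osteosarcoma markers reached 10 CPM (UMIs of a gene scaled to a common library total) in each library, with summed levels of 9428 CPM in 25R and 8345 CPM in 52R. Of 14 epithelial markers, 2 in 25R and 4 in 52R reached that level, with the keratins KRT8 and KRT18 making up most of sums of 1583 CPM in 25R and 1333 CPM in 52R, although the labels call the cells epithelial. The 13 leukocyte markers summed to 3.27 CPM in 25R and 1.15 CPM in 52R and the 9 endothelial markers to 1.88 CPM in 25R and 2.38 CPM in 52R, with none at 10 CPM. Mitochondrial transcripts made up a median of 6.85% of UMIs per cell in 25R and 8.86% in 52R. POLR2A, the gene of RPB1 (chromosome 17), stood at 194.6 CPM in HaloTag 25R and 322 CPM in HaloTag 52R, a log2 ratio of −0.73, against 293 CPM in Dendra2 25R and 238 CPM in Dendra2 52R, a log2 ratio of 0.30. These 3′ counts do not separate the tagged from the untagged transcript.

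Genes with a mean of at least 10 CPM over the pair were compared, which kept 8328 of 36601, each with at least 1104 UMIs in the 2 libraries together. A gene near this minimum can pass it through 1 library alone, which favours large ratios among genes of low level. Ratios are log2 of 25R over 52R, each CPM value with 1 added. Over all 8328 genes the median ratio was −0.04 and the standard deviation over genes was 0.53. At least 2-fold higher in 25R were 175 genes (2.10%), and at least 2-fold lower were 265 (3.18%). Past 4-fold were 39 genes higher and 36 lower, and past 8-fold 13 higher and 9 lower. Intervals given with folds below are 95% exact conditional binomial intervals of the 2 UMI sums. They cover counting error only, not the difference between cultures, and among the genes past 2-fold their bound nearest to equality was never under 1.9-fold. The threshold is not a natural gap. SNHG5 (116.9 CPM in 25R and 57.8 CPM in 52R) and ID1 (379 CPM in 25R and 189 CPM in 52R) were just inside it and PLEKHB2 (145 CPM in 25R and 72.4 CPM in 52R) just outside, while EMC10 (38.2 CPM in 25R and 77.5 CPM in 52R) was just inside on the lower side and PSME1 (95.8 CPM in 25R and 193 CPM in 52R) just outside.

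**Figure D1:**
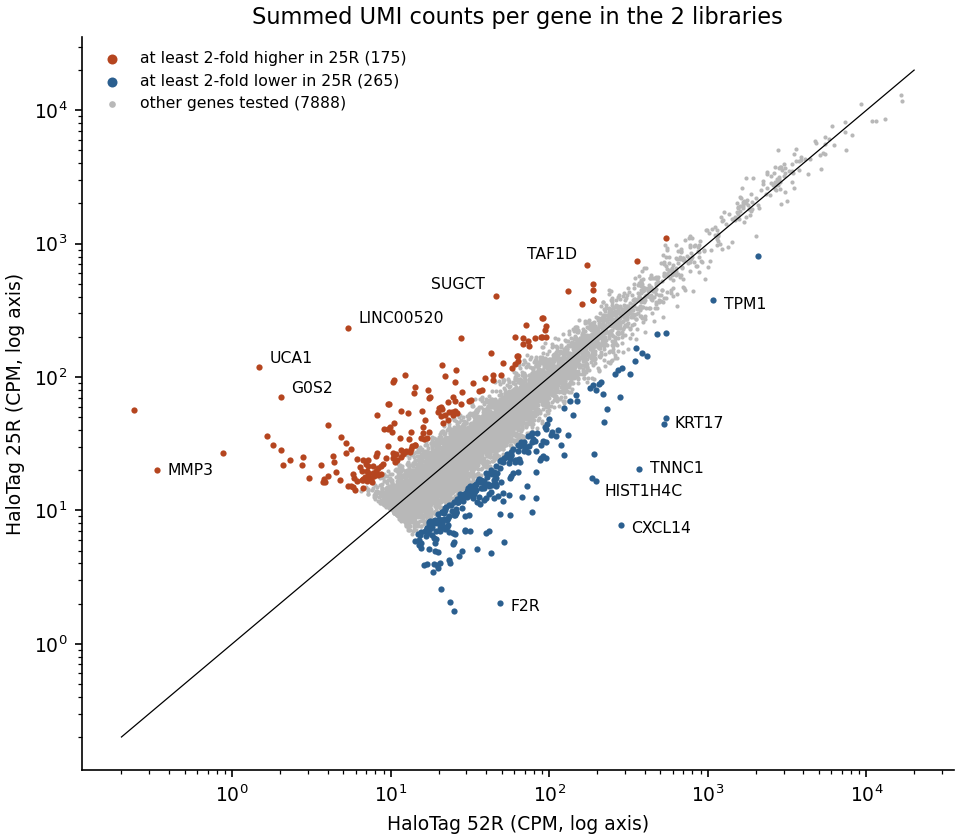
Summed UMI counts of 8328 genes in HaloTag 25R (vertical axis) and HaloTag 52R (horizontal axis), in CPM on log axes, 1 point per gene. Points past 2-fold on the +1 scale are coloured, 175 above the line of equality and 265 below it, and most genes lie close to that line.

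The genes that stood highest in HaloTag 25R relative to 52R were long noncoding RNAs that the 52R cells hardly contained. UCA1, a noncoding RNA first described in bladder cancer (chromosome 19, 15828206 to 15836328, GRCh38), had 118 CPM in 25R and 1.49 CPM in 52R, a 79.4-fold difference (63.7 to 100.3). AL713998.1, a noncoding transcript of chromosome 6, had 56.9 CPM in 25R and 0.241 CPM in 52R, where 13 UMIs were counted, a ratio of 236 (138 to 443). LINC00520 (chromosome 14, 55781132 to 55796731) had 234.9 CPM in 25R and 5.38 CPM in 52R, a 43.6-fold difference (38.8 to 49.2). All 3 were also low in both Dendra2 libraries: UCA1 at 2.35 CPM in 25R and 0.323 CPM in 52R, and LINC00520 at 6.49 CPM in 25R and 3.08 CPM in 52R. AL713998.1 was at 0.986 CPM in Dendra2 25R and 0.0381 CPM in Dendra2 52R. Of the 4 libraries, HaloTag 25R stood alone with high levels of these RNAs.

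Further noncoding RNAs on the higher side were SIRLNT (36.1 CPM in 25R and 1.65 CPM in 52R), LINC01524 (31.2 CPM in 25R and 1.80 CPM in 52R) and MANCR, a noncoding RNA known from breast cancer cells, at 95.02 CPM in 25R and 10.5 CPM in 52R. MANCR was also higher in the Dendra2 pair, with 14.96 CPM in 25R and 2.17 CPM in 52R. Among the genes tested, noncoding RNAs held more than their share of both ends. Of 361 measured lncRNAs, 54 (14.96%) were at least 2-fold higher and 30 (8.31%) at least 2-fold lower, with a median ratio of 0.18, while of 7952 protein-coding genes 120 (1.51%) were higher and 234 (2.94%) lower, with a median of −0.05. These classes had Dendra2 medians of 0.05 for the lncRNAs and −0.02 for the protein-coding genes. Median levels over the HaloTag pair were 20.6 CPM for the lncRNAs and 33.8 CPM for the protein-coding genes. The lncRNAs thus lay nearer the minimum of 10 CPM, and the part of level in their shares was not tested.

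Among protein-coding genes, G0S2, an inhibitor of triglyceride breakdown by the lipase ATGL, was 34.8-fold higher (28.8 to 42.5), with 70.5 CPM in 25R and 2.02 CPM in 52R. MMP3, the matrix protease stromelysin-1, had 19.9 CPM in 25R and 0.334 CPM in 52R, where 18 UMIs were counted, a ratio of 59.7 (37.6 to 101.0). The Dendra2 pair had MMP3 at 1.46 CPM in 25R and 2.17 CPM in 52R. ARHGDIB, a gene best known from blood cells, had 26.7 CPM in 25R and 0.873 CPM in 52R. LPXN, the focal adhesion adaptor leupaxin, had 43.3 CPM in 25R and 4.01 CPM in 52R, and the keratin KRT15 had 28.1 CPM in 25R and 2.02 CPM in 52R. SUGCT, a mitochondrial CoA-transferase that handles glutarate, was the most abundant of the 12 genes with the largest ratios in both libraries and was 8.91-fold higher (8.55 to 9.29), with 408 CPM in 25R and 45.8 CPM in 52R. The Dendra2 pair had SUGCT at 63.8 CPM in 25R and 31.0 CPM in 52R.

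Further higher genes were picked after their values were seen. NRG1, a ligand of the ERBB receptors, had 91.1 CPM in 25R and 10.3 CPM in 52R, and AREG, a ligand of the EGF receptor, had 55.3 CPM in 25R and 11.6 CPM in 52R. SAA1 and SAA2, acute-phase serum amyloid proteins whose sequences are close enough that reads may be shared, had 196.8 and 26.97 CPM in 25R and 27.6 and 5.22 CPM in 52R. ITGA2, the α2 chain of a collagen-binding integrin, had 75.96 CPM in 25R and 13.998 CPM in 52R, and LY96, which pairs with the receptor TLR4, had 51.8 CPM in 25R and 8.13 CPM in 52R. In the Dendra2 pair the direction was the same for NRG1 (35.0 CPM in 25R and 13.7 CPM in 52R), AREG (20.1 CPM in 25R and 12.7 CPM in 52R), SAA1 (58.7 CPM in 25R and 11.7 CPM in 52R) and ITGA2 (17.5 CPM in 25R and 7.38 CPM in 52R).

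Sequences before the transcription starts of these genes were looked up in RefSeq (GRCh38.p14), which gave windows of 250 bases before to 50 bases after the start for 12 of the 24 genes with the largest ratios and for 6647 of the 8328 tested. The AP-1 element, the site of FOS and JUN factors, written TGACTCA or its reverse complement TGAGTCA, is shown because 13 of the 97 genes at least 2-fold higher that had a window held it (13.4%), against 10 of 193 lower genes (5.18%) and 316 of 6647 tested genes (4.75%). The mean number of windows per gene was 1.6 for higher genes, 1.7 for lower genes and 1.46 for tested genes, and 4.95% of all 35116 windows held the element. The 40 bases around it are given below on the transcribed strand, 5′ to 3′, with the element in capitals, for 4 higher genes and for CXCL14, the gene with the largest ratio on the lower side. A match is a stretch of letters and was not tested as a site.
ARHGDIB, chr12:14951245-14951284, minus strand: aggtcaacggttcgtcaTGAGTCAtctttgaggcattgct
LPXN, chr11:58578295-58578334, minus strand: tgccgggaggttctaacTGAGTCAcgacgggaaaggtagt
MANCR, chr10:4678174-4678213, minus strand: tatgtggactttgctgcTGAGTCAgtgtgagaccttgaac
MDM2, chr12:68808882-68808921, plus strand: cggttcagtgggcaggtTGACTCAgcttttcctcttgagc
CXCL14, chr5:135579061-135579100, minus strand: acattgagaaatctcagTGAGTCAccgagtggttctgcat

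In ARHGDIB, LPXN and MANCR, all far higher in 25R, the element began 116 or 161 bases (2 annotated starts), 184 bases and 126 bases before the start. In CXCL14, far lower in 25R, it began 92 bases before the start, so the same 7 letters stood before genes at both ends of the comparison. FOS and JUN themselves, subunits of the factor that reads this element, were at 13.3 CPM in 25R and 29.0 CPM in 52R (FOS) and at a ratio of −0.48 (JUN). The paralog gene FOSL1 had a ratio of 0.87. The letters TATAAA or TTTATA were held by 11 of 97 higher genes (11.3%), 35 of 193 lower genes (18.1%) and 526 of 6647 tested genes (7.91%). Of all 35116 windows 11.5% held them, and lower genes had 1.7 windows per gene against 1.46 for tested genes.

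The 12 genes with the lowest ratio of HaloTag 25R over 52R included a chemokine, a troponin and a pair of keratins, and several of the 12 were detected in most 52R cells. CXCL14, a chemokine of epithelia and stroma (chromosome 5, 135570679 to 135579279), was 36.3-fold lower (33.0 to 39.9), with 7.79 CPM in 25R and 282 CPM in 52R. TNNC1, the calcium-binding troponin C of slow and cardiac muscle, was 18-fold lower (16.98 to 19.1), with 20.5 CPM in 25R and 369 CPM in 52R. KRT17, a keratin of basal and activated epithelium, had 44.7 CPM in 25R and 530 CPM in 52R, and KRT75, another keratin, 1.76 CPM in 25R and 24.97 CPM in 52R. These 4 were lower in the Dendra2 pair as well: CXCL14 at 40.3 CPM in 25R and 318 CPM in 52R, TNNC1 at 50.98 CPM in 25R and 221 CPM in 52R, KRT17 at 121 CPM in 25R and 505 CPM in 52R, and KRT75 at 1.67 CPM in 25R and 34.6 CPM in 52R.

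F2R, the thrombin receptor PAR1 on the cell surface, was 24.1-fold lower (20.01 to 29.2), with 2.02 CPM in 25R and 48.6 CPM in 52R. It did not go the same way in the Dendra2 pair, where it had 39.1 CPM in 25R and 32.5 CPM in 52R, so the HaloTag 25R library stood alone among the 4. EDIL3, a secreted integrin ligand, had 16.7 CPM in 25R and 196 CPM in 52R, and 67.5 CPM in Dendra2 25R and 157 CPM in Dendra2 52R. F2R and EDIL3 lie on the same stretch of chromosome 5, which is described with the chromosome blocks below. LINC00662, a noncoding RNA of chromosome 19, had 48.97 CPM in 25R and 541 CPM in 52R, an 11.0-fold difference (10.6 to 11.5). MIAT, a nuclear noncoding RNA, had 5.77 CPM in 25R and 51.9 CPM in 52R, and AC006504.1 2.05 CPM in 25R and 23.7 CPM in 52R. PTP4A3, a small phosphatase of the PRL family, had 4.77 CPM in 25R and 42.6 CPM in 52R. SHOC1, a meiotic crossover factor, had 9.77 CPM in 25R and 77.9 CPM in 52R. HIST1H4C, a gene of histone H4, is described with the histones.

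**Figure D2:**
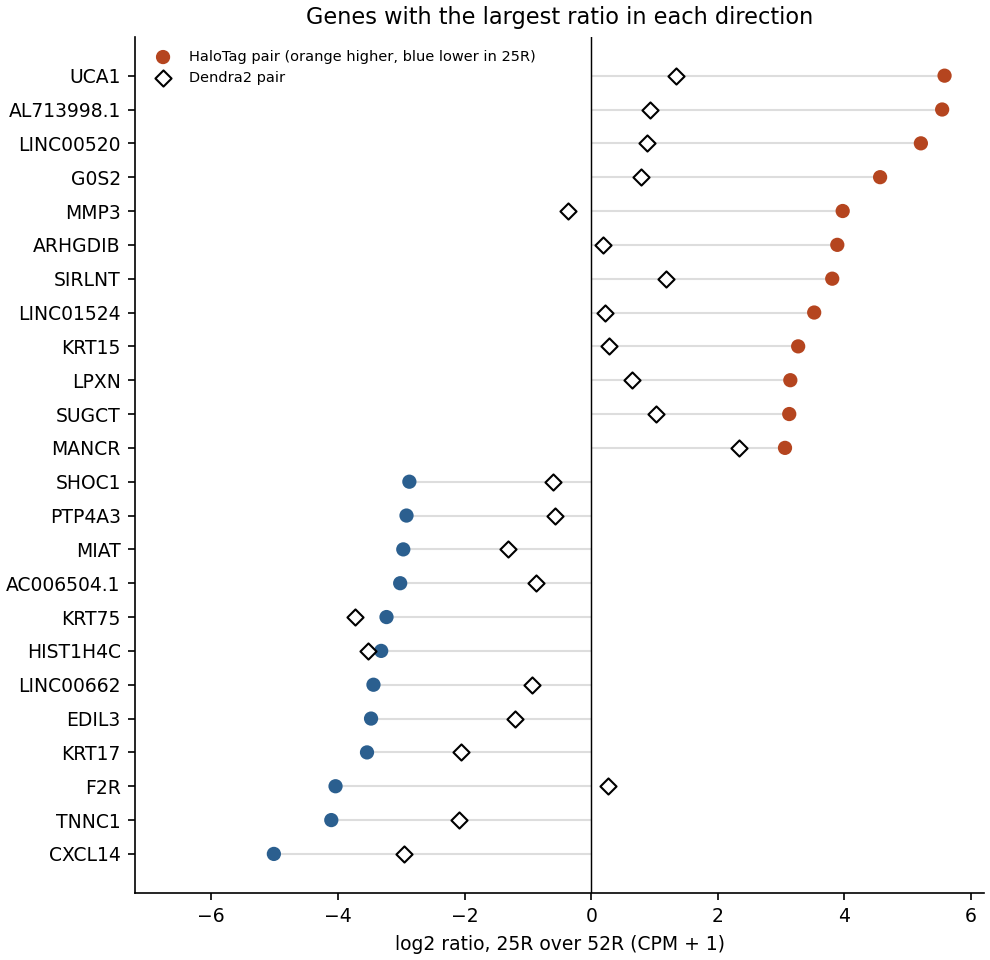
Log2 ratio of 25R over 52R (CPM + 1) for the 12 genes with the largest ratio in each direction in the HaloTag pair. Filled circles are the HaloTag pair and open diamonds the Dendra2 pair, 1 library per genotype: 22 of the 24 diamonds lie on the same side of 0 as their circle, all but MMP3 and F2R.

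Further lower genes were also picked after their values were seen. MDK and PTN, the paired heparin-binding growth factors midkine and pleiotrophin, had 57.9 and 13.1 CPM in 25R and 231 and 55.7 CPM in 52R. CRABP2, which carries retinoic acid to its receptor, had 4.57 CPM in 25R and 27.1 CPM in 52R. The Wnt ligand WNT6 had 4.04 CPM in 25R and 20.4 CPM in 52R, and the BMP antagonist NOG 11.9 CPM in 25R and 50.9 CPM in 52R. HAPLN1, which links hyaluronan to proteoglycans, had 45.7 CPM in 25R and 223 CPM in 52R. The Dendra2 pair had MDK at 56.9 CPM in 25R and 202 CPM in 52R and CRABP2 at 11.3 CPM in 25R and 68.96 CPM in 52R, but NOG at 37.6 CPM in 25R and 25.0 CPM in 52R.

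The HaloTag and Dendra2 pairs share no library, so the Dendra2 values can be read beside the calls made in the HaloTag pair. Of the 175 genes at least 2-fold higher in HaloTag 25R, 140 had a ratio above 0 in the Dendra2 pair, 35 were at least 2-fold higher there and 3 at least 2-fold lower. Of the 265 lower genes, 218 had a ratio below 0, 53 were at least 2-fold lower and 2 at least 2-fold higher. Over the same 8328 genes the Dendra2 pair had 3992 above 0 and 4336 below 0. At least 2-fold higher there were 0.841% and at least 2-fold lower 1.44%. The Dendra2 sign counts given with the gene lists below are to be read beside the same 3992 and 4336. The median ratio of the higher genes was 1.36 in the HaloTag pair and 0.37 in the Dendra2 pair, and that of the lower genes −1.29 in the HaloTag pair and −0.44 in the Dendra2 pair.

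Genes activated by the tumour suppressor p53, which stops the cell cycle or starts cell death after stress, were higher in HaloTag 25R as a list. Of 35 measured targets 32 had a ratio above 0, where 3767 of 8328 tested genes did, and 9 were at least 2-fold higher and none lower, with a median of 0.75 against −0.04 over all tested genes. GDF15, a secreted stress cytokine, had 84.5 CPM in 25R and 14.1 CPM in 52R, a 5.98-fold difference (5.54 to 6.46). CMBL, a hydrolase, had 71.2 CPM in 25R and 17.8 CPM in 52R, FAS, a death receptor, 47.3 CPM in 25R and 16.3 CPM in 52R, and the kinase gene PLK3 34.3 CPM in 25R and 13.0 CPM in 52R. CDKN1A, the p21 inhibitor of cyclin-dependent kinases, had 200.2 CPM in 25R and 95.7 CPM in 52R, and MDM2, the ligase that degrades p53, 143 CPM in 25R and 63.3 CPM in 52R. The pro-apoptotic BAX and BBC3 were at ratios of −0.18 and −0.10. Of the same 35 genes 32 were above 0 in the Dendra2 pair, with a median of 0.37.

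Within cells assigned to the same cell cycle phase the list's median was 0.73 in S, 0.80 in G2/M and 0.60 in neither. MDM2, whose AP-1 window is printed above, had ratios of 1.26 in S, 1.16 in G2/M and 1.00 in neither. CDKN1A had ratios of 1.06 in S, 1.42 in G2/M and 0.81 in neither.

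Host genes of small nucleolar RNAs (snoRNAs), which carry snoRNAs in their introns and often begin with a run of pyrimidines like ribosomal protein genes, were also higher as a list. Of 25 measured, 20 had a ratio above 0, 3 were at least 2-fold higher and none lower, with a median of 0.49. TAF1D, which encodes a subunit of the RNA polymerase I factor SL1 and hosts several snoRNAs, had 687 CPM in 25R and 173 CPM in 52R, a 3.97-fold difference (3.88 to 4.06). SNHG25 had 445 CPM in 25R and 188 CPM in 52R, and SNHG5 117 CPM in 25R and 57.8 CPM in 52R. GAS5, EPB41L4A-AS1, SNHG12, SNHG4 and ZFAS1 had ratios of 0.90, 0.88, 0.74, 0.70 and 0.69. In the Dendra2 pair 21 of the 25 were above 0 with a median of 0.32, but TAF1D had 171 CPM in 25R and 147 CPM in 52R there. Of the 79 ribosomal protein genes of the cytosol 58 were above 0 (median 0.14), and RPS10 was the 1 past 2-fold, at 1096 CPM in 25R and 542 CPM in 52R.

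The 30 bases around the start are shown for 5 host genes because their starts differ in the feature that the list is known for. The run of C and T that begins with a C within 5 bases of the start is in capitals, on the transcribed strand, 15 bases before and 15 after the annotated start (RefSeq, GRCh38.p14).
TAF1D, chr11:93741481-93741510, minus strand: acggaaatagccaaCCCTTTTCTTCCgcac
SNHG5, chr6:85678719-85678748, minus strand: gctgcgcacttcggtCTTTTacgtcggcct
SNHG12, chr1:28581859-28581888, minus strand: tcgcggcttcagcgCCCTTTCTCCCCgccg
ZFAS1, chr20:49278627-49278656, plus strand: aggaagccattcgttCTTTCgcgtctgcgg
SNHG19, chr16:2155344-2155373, minus strand: ctcgcccgcccctgtCTTTTCggggtcgag

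The run is 12 bases long in TAF1D and SNHG12, 5 in SNHG5 and ZFAS1 and 6 in SNHG19, a host gene with a ratio of −0.08. A run of at least 6 bases was found in 8 of the 21 measured host genes with a window (38.1%), in 53 of 63 ribosomal protein genes (84.1%) and in 1143 of 6647 tested genes (17.2%). Of the 2 lists, the ribosomal protein genes had the larger share of runs and the lower median ratio.

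Stress-response genes were higher in part. Of 20 measured antioxidant genes driven by NRF2, 16 were above 0 and 3 at least 2-fold higher, with a median of 0.44. These were SLC7A11, the cystine transporter (18.4 CPM in 25R and 8.32 CPM in 52R), NQO1, a quinone reductase (131 CPM in 25R and 63.1 CPM in 52R), and HMOX1, heme oxygenase 1 (51.6 CPM in 25R and 24.6 CPM in 52R). NQO1 had 118 CPM in 25R and 129 CPM in 52R in the Dendra2 pair, where the list's median was 0.06. Of 27 genes of ATF4 and the unfolded protein response 3 were at least 2-fold higher and none lower, with a median of 0.12. DDIT3, the transcription factor CHOP, had 42.6 CPM in 25R and 9.84 CPM in 52R, a 4.32-fold difference (3.94 to 4.76), and SESN2, a regulator of growth signalling that is also on the p53 list, 30.7 CPM in 25R and 14.2 CPM in 52R. ATF4 itself and the chaperone HSPA5 had ratios of 0.02 and −0.06. Of these 27 genes 23 were below 0 in the Dendra2 pair (median −0.27), and DDIT3 had 5.84 CPM in 25R and 10.03 CPM in 52R.

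**Figure D3:**
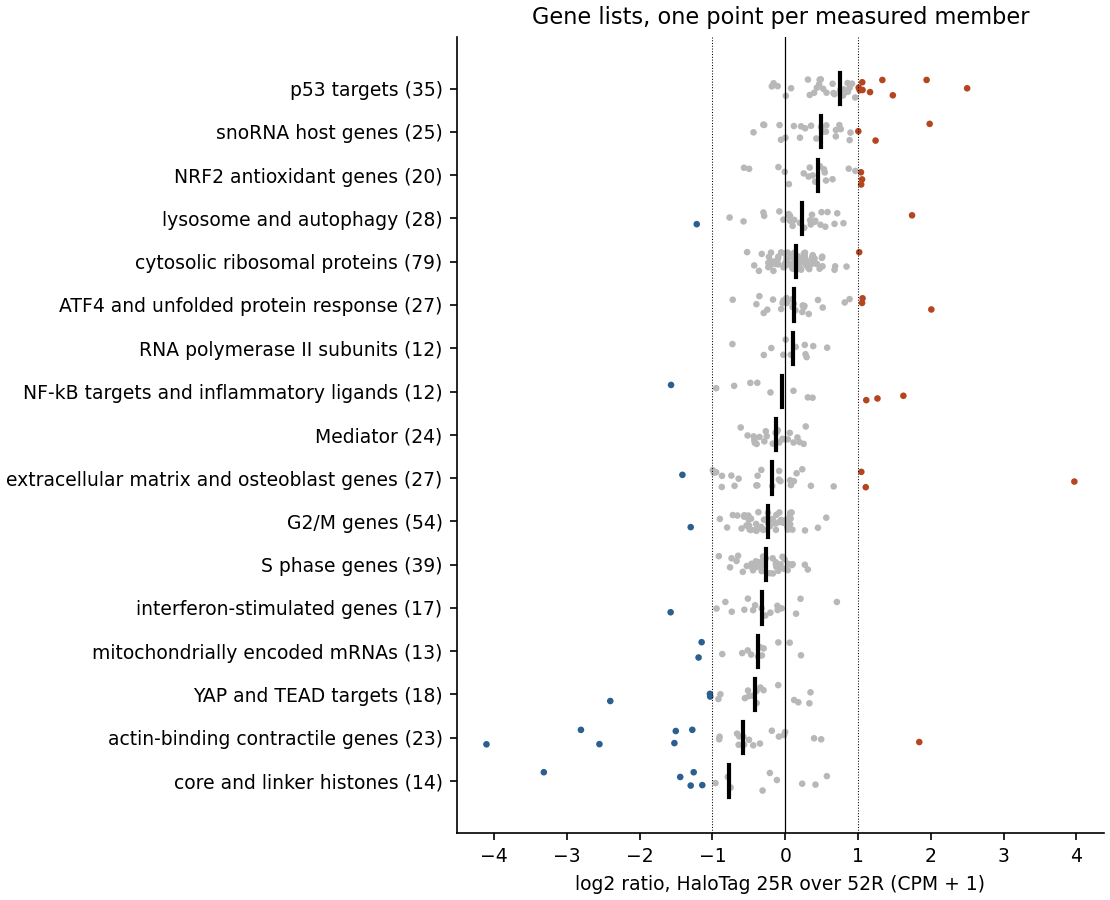
Log2 ratio of HaloTag 25R over 52R (CPM + 1) for members of 17 gene lists, 1 point per member with a mean of at least 10 CPM. The number of members is in brackets, black bars are list medians and dotted lines mark 2-fold: p53 targets are highest at 0.75 and histones, core and linker together, lowest at −0.77.

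Actin-binding and contractile genes formed the lowest list after the histones. Of 23 measured, 20 were below 0, 6 at least 2-fold lower and 1 at least 2-fold higher, with a median of −0.58. Beside TNNC1, the smooth-muscle proteins TAGLN (transgelin) and CNN1 (calponin) had 26.6 and 5.12 CPM in 25R and 192 and 34.9 CPM in 52R. TPM1, the tropomyosin that lies along actin filaments, had 376 CPM in 25R and 1083 CPM in 52R, a 2.88-fold difference (2.84 to 2.92). The troponin TNNT1 had 144 CPM in 25R and 411 CPM in 52R, and the myosin light chain MYL9 112 CPM in 25R and 273 CPM in 52R. The exception was ACTA2, smooth-muscle actin, with 16.3 CPM in 25R and 3.82 CPM in 52R. In Dendra2 cells 20 of the 23 were below 0 too (median −0.39), and ACTA2 was again above 0, at 5.65 CPM in 25R and 2.44 CPM in 52R.

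Other cytoskeletal genes went both ways. Of the 11 genes of the intermediate filament list, which does not hold KRT15, KRT17 or KRT75, NEFL, the light neurofilament chain, was higher (152 CPM in 25R and 42.8 CPM in 52R), and NES, nestin of progenitor cells, and the keratin KRT80 were lower (9.31 and 36.3 CPM in 25R, 56.7 and 73.7 CPM in 52R), while VIM, vimentin, had a ratio of 0.41. NES was also low in Dendra2 25R, at 6.998 CPM against 50.1 CPM in Dendra2 52R. The β-tubulin gene TUBB2B had 13.5 CPM in 25R and 51.0 CPM in 52R, the 1 of 11 tubulins past 2-fold. Of 18 targets of YAP and TEAD, the effectors of the Hippo pathway, 14 were below 0 and 3 at least 2-fold lower, RBMS3 (7.03 CPM in 25R and 41.5 CPM in 52R), LATS2 (23.4 CPM in 25R and 49.0 CPM in 52R) and TGFB2 (23.8 CPM in 25R and 49.7 CPM in 52R), with a median of −0.42. The same list had a median of 0.03 in the Dendra2 pair.

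Matrix and ligand genes were split as well. Of 27 matrix and osteoblast genes 3 were at least 2-fold higher, MMP3, the collagen VI chain COL6A3 (34.7 CPM in 25R and 15.6 CPM in 52R) and the protease inhibitor SERPINE2 (103 CPM in 25R and 49.4 CPM in 52R). The collagen I chain COL1A1 was at least 2-fold lower, with 52.1 CPM in 25R and 140.4 CPM in 52R, and 40.8 CPM in Dendra2 25R and 206 CPM in Dendra2 52R. CD44, the hyaluronan receptor, had 198 CPM in 25R and 60.4 CPM in 52R, and the neural cadherin CDH2 25.9 CPM in 25R and 57.1 CPM in 52R. Of 12 NF-κB targets and inflammatory ligands CD70, a TNF-family ligand of T cells (278 CPM in 25R and 89.7 CPM in 52R), the mitochondrial superoxide dismutase SOD2 (197 CPM in 25R and 81.1 CPM in 52R) and the apoptosis inhibitor BIRC3 (28.1 CPM in 25R and 12.5 CPM in 52R) were higher, and the chemokine CCL2 lower (19.2 CPM in 25R and 58.8 CPM in 52R). CD70 was higher in the Dendra2 pair by about as much, with 142 CPM in 25R and 43.4 CPM in 52R.

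Of 28 lysosome and autophagy genes 21 were above 0, with a median of 0.23. In the Dendra2 pair 7 of the 28 were above 0 and 21 below, with a median of −0.12. Within phases the list's HaloTag median was 0.14 in S, 0.16 in G2/M and 0.05 in neither. The list held 2 cathepsins, proteases of the lysosome, at opposite ends: CTSB had 444 CPM in 25R and 132 CPM in 52R, and CTSL 87.9 CPM in 25R and 205 CPM in 52R. Of 17 interferon-stimulated genes 14 were below 0, with a median of −0.33, and the immunoproteasome subunit PSMB9 was past 2-fold, at 13.2 CPM in 25R and 41.4 CPM in 52R. Of 19 immediate early genes 12 were below 0, where 4561 of 8328 tested genes were. In the Dendra2 pair 10 of the 19 were above 0 and 9 below. FOS and JUND were at least 2-fold lower in the HaloTag pair, JUND at 73.2 CPM in 25R and 148 CPM in 52R. Of 12 measured members of the list of cancer-testis genes, only MAGED1 was past 2-fold, at 40.7 CPM in 25R and 95.04 CPM in 52R. The list does not hold PAGE2 (213.9 CPM in 25R and 541 CPM in 52R) or SPANXB1 (245.9 CPM in 25R and 71.3 CPM in 52R).

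Histone genes, core and linker together, had the lowest median of any list, −0.77. Their replication-dependent members are made in S phase and mostly carry a hairpin at the 3′ end where other mRNAs are polyadenylated. Of 14 measured, 11 were below 0 and 5 at least 2-fold lower. HIST1H4C had 17.6 CPM in 25R and 185 CPM in 52R, a 10.5-fold difference (9.82 to 11.2), and 87.4 CPM in Dendra2 25R and 1016 CPM in Dendra2 52R. The linker histones HIST1H1A and HIST1H1E had 33.1 and 22.7 CPM in 25R and 91.7 and 55.6 CPM in 52R. HIST1H3B and HIST1H2AH had 8.01 and 12.2 CPM in 25R and 21.2 and 28.0 CPM in 52R. Some histone genes are near-identical in sequence, so reads may be split among them. HIST1H2BJ, HIST1H2BD and HIST1H2AC were at ratios of 0.57, 0.42 and 0.23.

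Summed over all cells, most S phase and G2/M genes were slightly lower in 25R. Of 39 S phase genes 33 were below 0, with a median of −0.27, and of 54 G2/M genes 40 were below 0, with a median of −0.24, with HMGB2, a DNA-bending protein, the 1 past 2-fold (105 CPM in 25R and 261 CPM in 52R). After each cell was thinned to 5000 UMIs, 32.8% of 3433 cells in 25R and 33.4% of 3644 cells in 52R were called S (exact binomial 95% intervals 31.2 to 34.4 and 31.9 to 35.0). G2/M calls made up 20.04% in 25R and 24.6% in 52R (18.7 to 21.4 and 23.2 to 26.0), and 47.2% of cells in 25R and 42.0% in 52R were neither. Calls of 19.5% of cells in 25R and 12.4% in 52R lay within 0.05 of a boundary between phases, and free RNA in the droplets, which also enters these scores, was not tested. Within phases, which were called with these same lists, the S phase genes had medians of −0.29 in S, −0.04 in G2/M and 0.16 in neither. The G2/M genes had medians of 0.10 in S, −0.34 in G2/M and 0.80 in neither, so the sign of both lists depended on the phase. HIST1H4C was lower within each phase, with ratios of −3.51 in S, −3.01 in G2/M and −2.73 in neither. The median of the histone list was −0.82 in S, −0.64 in G2/M and −0.34 in neither. HIST1H1A was at −1.45 in both S and G2/M and at −0.33 in neither, and HMGB2 at −1.16 in S, −1.31 in G2/M and −0.42 in neither.

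Of the 13 mitochondrially encoded mRNAs 11 were below 0 (median −0.37, and −0.01 in the Dendra2 pair). MT-ND6 and MT-ATP8, subunits of complex I and of the ATP synthase, were past 2-fold, with 210.0 and 66.6 CPM in 25R and 481 and 149 CPM in 52R. Of 12 RNA polymerase II subunits 8 were above 0 and none past 2-fold, with ratios between −0.73 for POLR2A and 0.58 for POLR2E. Of 24 Mediator genes 17 were below 0 (median −0.12), with none past 2-fold. Of 36 genes of CTD kinases, phosphatases and elongation factors 25 were below 0 (median −0.14), with none past 2-fold. Of 48 splicing factors measured 35 were below 0 (median −0.12), also with none past 2-fold. Over all tested genes 4561 of 8328 were below 0 (median −0.04), 2.10% at least 2-fold higher and 3.18% at least 2-fold lower. In lists of this size, none past 2-fold is close to these shares.

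The share of cells in which a gene was detected was compared after thinning to 5000 UMIs per cell, which left out 50 cells of 25R and 61 of 52R. At least 10 percentage points higher in 25R were 262 genes (3.15%) and at least 10 points lower 312 (3.75%). Of these, 93 and 125 were also past 2-fold in CPM the same way. SUGCT was detected in 65.1% of 25R cells (63.5 to 66.7, exact binomial) and 14.6% of 52R cells (13.5 to 15.8). CD70 was detected in 67.9% of 25R cells and 29.0% of 52R cells, TAF1D in 92.6% of 25R cells and 55.9% of 52R cells, CTSB in 76.1% of 25R cells and 41.3% of 52R cells, and CD44 in 58.8% of 25R cells and 24.9% of 52R cells. Without thinning TAF1D was in 98.7% of 25R cells and 85.1% of 52R cells, and SUGCT in 83.7% of 25R cells and 26.6% of 52R cells.

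On the lower side, TNNC1 was detected in 8.65% of 25R cells (7.73 to 9.64) and 74.6% of 52R cells (73.2 to 76.0), and KRT17 in 15.8% of 25R cells and 77.1% of 52R cells. LINC00662 was in 20.2% of 25R cells and 72.4% of 52R cells, EDIL3 in 8.48% of 25R cells and 59.0% of 52R cells, and HAPLN1 in 18.3% of 25R cells and 58.2% of 52R cells. These genes were common in 52R and present in a minority of 25R cells. After thinning, CXCL14 was detected in a minority of cells in both libraries, at 2.56% of 25R cells and 38.6% of 52R cells. Without thinning it was detected in most 52R cells, so the minority there depends on the depth of thinning. CXCL14 was also uneven within 52R, where the variance over the mean of its UMIs per thinned cell was 11.3. In 52R 388 cells (10.6%) held 5 or more UMIs, against 8 cells (0.233%) in 25R. HIST1H4C was similar, with 5 or more UMIs in 16 cells (0.466%) of 25R and 198 (5.43%) of 52R. TNNC1, by contrast, had a variance over the mean of 1.73 in 25R and 1.84 in 52R. The cell type that should lack each gene is not present in a culture of 1 line, so the level that free RNA alone would give was not measured.

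The 3 noncoding RNAs with the largest ratios were not spread evenly over 25R cells. Their joint occurrence was examined after their values were seen. After thinning, UCA1 was detected in 31.3%, LINC00520 in 34.3% and AL713998.1 in 15.4% of 25R cells, against 0.631%, 1.81% and 0.110% of 52R cells. LINC00520 was detected in 51.0% of the 1074 25R cells with UCA1 (48.0 to 54.1) and in 26.6% of the 2359 without it (24.8 to 28.5). AL713998.1 was detected in 28.7% of 25R cells with UCA1 (26.0 to 31.5) and in 9.33% of those without it (8.18 to 10.6). All 3 were detected in 214 cells of 25R, 2 of them in 538, 1 in 1060 and none in 1621, whereas 52R had 0, 5, 83 and 3556 such cells. Cells with all 3 were called neither S nor G2/M in 80.8% of cases, cells with 2 in 66.4%, cells with 1 in 50.3% and cells with none in 34.3%. Their median UMI counts before thinning were 16106, 16767, 16517 and 15685. Cells of 1 library are not independent cultures, so these shares describe this library.

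The study's kinetic tables give for each gene a mean number of UMIs per cell and a parameter K, the authors' fitted burst frequency, from a beta-Poisson model of bursts. The mean divided by K was taken as burst size. The authors' means were 0.997 to 1.01 times the UMIs per kept cell in 25R, so K is not a measurement independent of the counts above. K was compared where the mean was at least 0.5 in both libraries, which held for 3827 genes. Burst frequency was at least 2-fold higher in 25R for 25 genes (0.653%) and at least 2-fold lower for 31 (0.810%). Burst size was at least 2-fold higher for 146 genes (3.81%) and at least 2-fold lower for 75 (1.96%). The median log2 ratio was 0.04 for frequency and 0.14 for size. The values are not scaled for depth, and mean UMIs per cell were 16779 in 25R and 14538 in 52R, a log2 ratio of 0.21, so size carries that difference.

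Genes past 2-fold in CPM differed more in fitted size than in fitted frequency. The 37 higher genes with a mean of at least 0.5 in both libraries, a minimum that leaves out genes such as UCA1, had a median log2 ratio of 0.93 in size and 0.48 in frequency, and size differed more than frequency in 25 of them. The 55 lower genes above the same minimum, which leaves out genes such as F2R, had medians of −1.08 in size and −0.04 in frequency, and size differed more in 46. With each ratio set against the median of all 3827 genes, the medians were 0.78 in size and 0.44 in frequency for the higher genes and −1.22 and −0.07 for the lower ones. Since size is the mean divided by K, an error in K moves both in opposite directions, so part of the downward slope in the plot of frequency against size is built in. How many genes pass also depends on the minimum mean and on the scaling of size, as described under the dependence on processing.

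**Figure D4:**
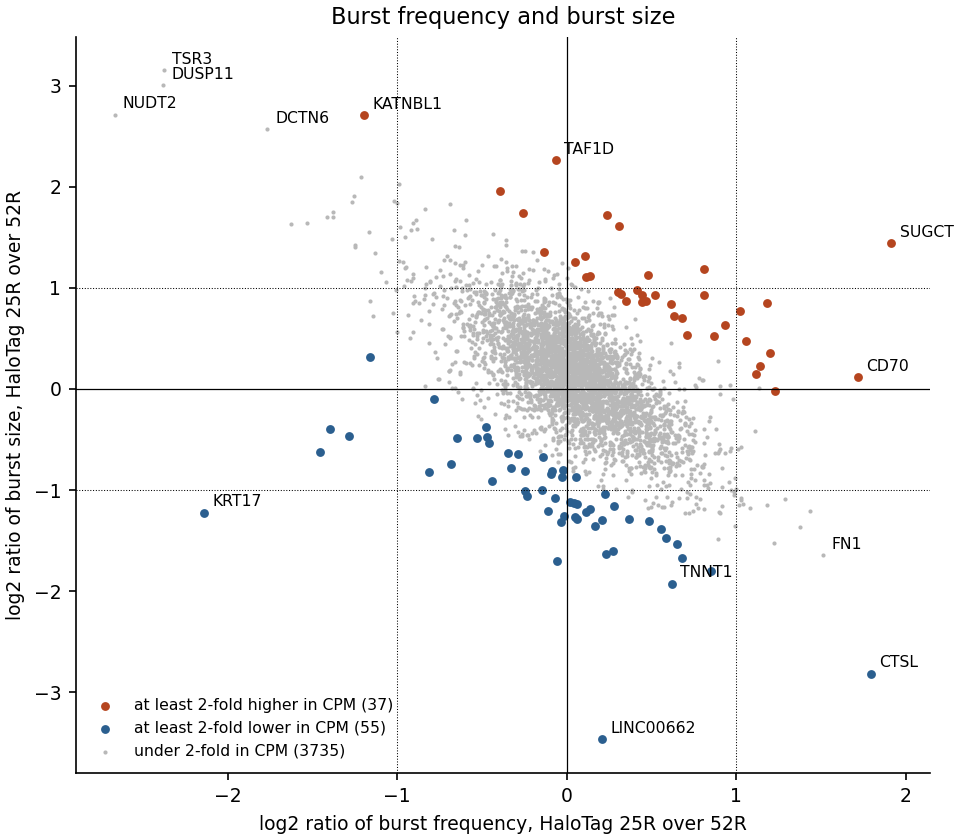
Log2 ratio of HaloTag 25R over 52R in the authors' fitted burst frequency (horizontal axis) and in burst size (vertical axis), 1 point per gene for 3827 genes. Genes at least 2-fold higher (37) or lower (55) in CPM are coloured and dotted lines mark 2-fold; LINC00662 and TAF1D lie far from 0 in size and near 0 in frequency.

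SUGCT had the largest ratio in burst frequency, with K of 0.806 in 25R (the authors' limits 0.764 to 0.851) and 0.214 in 52R (0.193 to 0.236), and its size was 8.50 UMIs in 25R and 3.13 in 52R. CD70 had K of 2.06 in 25R (1.92 to 2.21) and 0.625 in 52R (0.575 to 0.679) at nearly the same size, 2.27 UMIs in 25R and 2.09 in 52R. With the Dendra2 tag CD70 had K of 1.04 in 25R and 0.642 in 52R. CDKN1A also differed mainly in frequency, with K of 1.54 in 25R and 0.709 in 52R and sizes of 2.19 and 1.97 UMIs.

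CTSL and FN1, the gene of fibronectin, had more frequent and smaller fitted bursts in 25R. CTSL had K of 2.27 in 25R and 0.654 in 52R, with sizes of 0.650 UMIs in 25R and 4.58 in 52R. FN1 had K of 0.938 in 25R and 0.329 in 52R, with sizes of 1.07 UMIs in 25R and 3.34 in 52R, at 59.9 CPM in 25R and 75.4 CPM in 52R. In thinned cells the variance over the mean of CTSL was 1.40 in 25R and 6.42 in 52R, and that of FN1 1.73 in 25R and 4.13 in 52R, so a few 52R cells held many of these transcripts. RNPEP, an aminopeptidase, had K of 13.3 in 25R and 4.94 in 52R, but its limits in 25R ran between 5.79 and 346.

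Burst frequency was lowest relative to 52R for NUDT2, DUSP11, TSR3, KRT17 and DCTN6. For NUDT2, a nucleotide hydrolase, and DUSP11, an RNA phosphatase, the upper limits of K in 52R were 1069 and 340, so their values of 20.03 and 12.9 there are poorly fixed. KRT17 had K of 0.254 in 25R (0.231 to 0.279) and 1.12 in 52R (1.06 to 1.18). TSR3, an enzyme of ribosomal RNA modification, had K of 0.931 in 25R and 4.84 in 52R and the largest ratio in size, 1.84 UMIs in 25R and 0.207 in 52R, with 102 CPM in 25R and 68.9 CPM in 52R. The dynactin subunit DCTN6 had sizes of 0.756 UMIs in 25R and 0.128 in 52R. KATNBL1, a katanin-related gene, had sizes of 3.96 UMIs in 25R and 0.606 in 52R, with 128 CPM in 25R and 51.3 CPM in 52R.

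Among genes named above, TAF1D and LINC00662 differed in size at like frequencies. TAF1D had K of 3.08 in 25R and 3.22 in 52R, with sizes of 3.75 UMIs in 25R and 0.783 in 52R. LINC00662 had K of 1.04 in 25R and 0.904 in 52R, with sizes of 0.789 UMIs in 25R and 8.71 in 52R. TNNT1 was lower in size, at 0.529 UMIs in 25R and 2.01 in 52R, with a higher K of 4.58 in 25R and 2.98 in 52R. The adhesion molecule gene NTM was lower in size, at 1.42 UMIs in 25R and 4.61 in 52R, with K of 0.843 in 25R and 0.877 in 52R. PTOV1, a prostate tumour-associated gene, had sizes of 0.0788 UMIs in 25R and 0.275 in 52R, with an upper limit of K of 62.7 in 25R. TPM1 had K of 1.75 in 25R and 1.89 in 52R and sizes of 3.61 UMIs in 25R and 8.34 in 52R.

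The longest genes were lower as a group in HaloTag 25R. Split into 5 groups of like size by the length of the annotated gene, the group of the shortest genes (median 5.54 kb) had a median ratio of 0.03 and that of the longest (median 156 kb) one of −0.21, with −0.01, −0.01 and −0.06 between them. Of the 1664 longest genes 103 (6.19%) were at least 2-fold lower and 29 (1.74%) at least 2-fold higher. Protein-coding genes alone gave 0.02 for the shortest group and −0.22 for the longest. The Dendra2 pair had −0.02 for the shortest group and −0.03 for the longest. Median levels over the pair were 46.4 CPM in the shortest group and 26.6 CPM in the longest, and the part of level in the trend was not tested.

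Neighbouring genes shared direction in several chromosome regions, which were picked after their values were seen. Chromosome 8 had a median ratio of 0.29 over 330 genes, of which 240 (72.7%) were above 0, 23 at least 2-fold higher and 6 at least 2-fold lower, while the medians of the other chromosomes ran between −0.22 and 0.03. In 322 blocks of about 25 neighbouring tested genes the medians had a standard deviation of 0.16, 7 were at least 0.30 and 6 of those 7 were on chromosome 8. Over 104 genes of its first 42.5 Mb the median was 0.48, with 87 above 0, and the most abundant were CLU (218 CPM in 25R and 399 CPM in 52R), CTSB, PBK (193 CPM in 25R and 220 CPM in 52R) and SARAF (227 CPM in 25R and 147 CPM in 52R), so 2 of the 4 went against the block. NRG1, LY96 and NEFL, named above, and SNHG6 and the ribosomal genes RPL7, RPL30 and RPS20 (ratios of 0.69, 0.84 and 0.68) also lie on chromosome 8. In the Dendra2 pair those 104 genes had a median of −0.03.

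Of the 17 blocks with a median of −0.30 or less, 7 lay on chromosome 19, 4 on chromosome 9, 2 each on chromosomes 5 and 14, and 1 each on chromosomes 4 and 7. The lowest held 25 genes at 169 to 190 Mb of chromosome 4, with a median of −0.89 and 12 genes at least 2-fold lower, and its most abundant genes were HMGB2, SPCS3, FRG1 and HPF1, at ratios of −1.299, −0.30, −0.85 and −0.06. At 73.5 to 97.0 Mb of chromosome 5, where F2R, EDIL3 and HAPLN1 lie, 52 genes had a median of −0.55 with 46 below 0. At 129 to 138 Mb of chromosome 9, 72 of 77 genes were below 0 (median −0.38), and at 19.2 to 50.5 Mb of chromosome 19, 156 of 177 (median −0.41). The Dendra2 medians of these 4 regions were 0.02, 0.05, −0.02 and 0.00. Chromosome 14 differed: 50 genes at 77.7 to 107 Mb, among them HSP90AA1 (997 CPM in 25R and 1194 CPM in 52R), had a median of −0.51 in the HaloTag pair and −0.87 in the Dendra2 pair.

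The spread between cells also differed in some of these regions. The variance over the mean of summed UMIs per thinned cell, over genes under 500 CPM, was 2.05 in 25R and 1.52 in 52R for the first 42.5 Mb of chromosome 8. It was 1.54 in 25R and 2.47 in 52R for the chromosome 14 region and 2.01 in 25R and 3.24 in 52R for the chromosome 19 region. The chromosome 5 region had 1.36 in 25R and 1.70 in 52R. Differences were small for the chromosome 9 region (1.54 in 25R and 1.48 in 52R) and the chromosome 4 region (1.48 in 25R and 1.43 in 52R). In the Dendra2 libraries the same measure was 1.42 in 25R and 1.36 in 52R for the chromosome 8 region, 1.23 in 25R and 1.32 in 52R for the chromosome 14 region, and 1.70 in 25R and 1.68 in 52R for the chromosome 19 region. Mean sums per thinned cell in the HaloTag pair were 27.8 in 25R and 20.5 in 52R for the chromosome 8 region. They were 10.3 in 25R and 14.8 in 52R for the chromosome 14 region, and 46.6 in 25R and 60.8 in 52R for the chromosome 19 region. In these regions the library with the larger spread also had the larger mean, and the part of the mean was not tested. DNA copy number was not measured, and its part in these values was not tested.

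**Figure D5:**
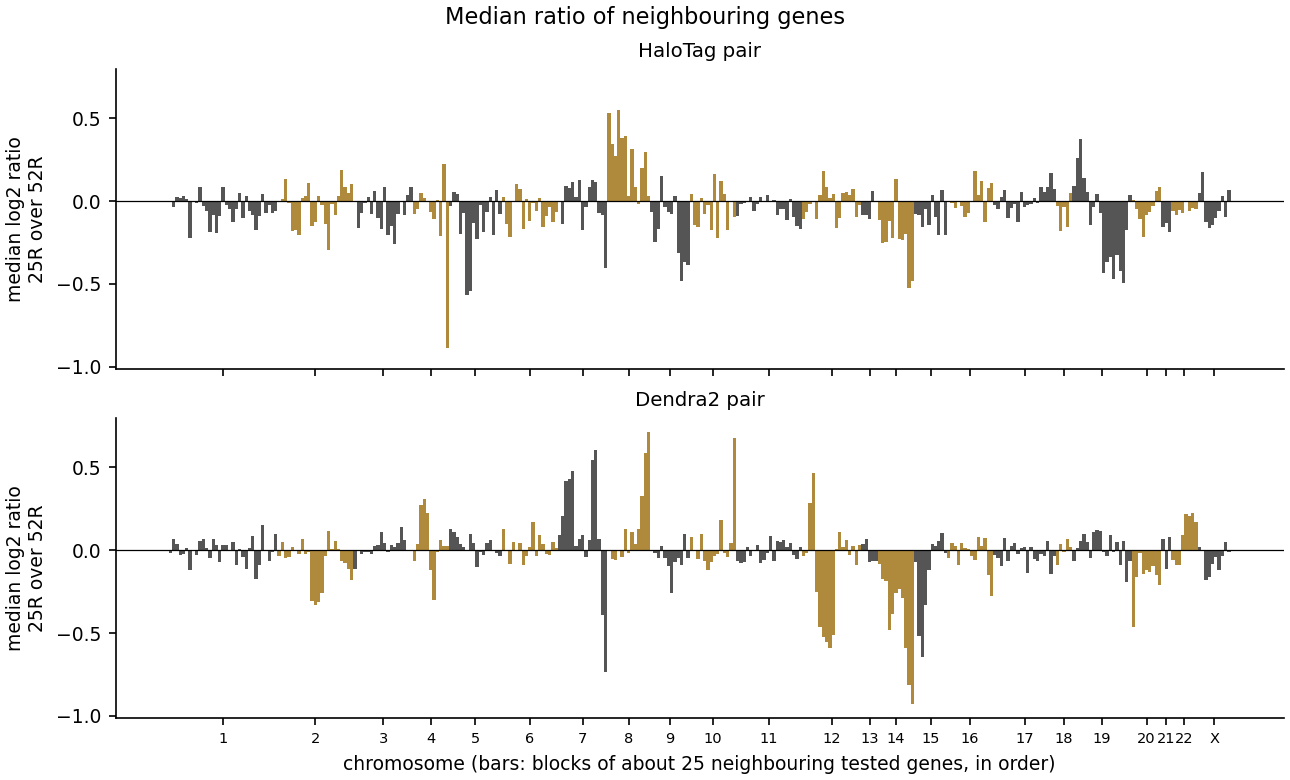
Median log2 ratio of 25R over 52R for 322 blocks of about 25 neighbouring tested genes, in chromosome order, in the HaloTag pair (top) and the Dendra2 pair (bottom), with colours alternating between chromosomes. In the HaloTag pair 12 of the 13 blocks of chromosome 8 lie above 0 and blocks on chromosomes 4, 5, 7, 9, 14 and 19 reach −0.30 or less; the ends of chromosomes 7 and 14 are low in both pairs.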

How the data were processed

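RNA was captured with a 10x 3′ chemistry, per the labels, and both HaloTag libraries were sequenced in 2 runs treated as 1 sample, per the series' design text. The submitters' processing notes name bcl2fastq and the GRCh38 build. The deposited values are UMI counts per gene and cell, written by Cell Ranger 6.1.2 according to the file headers. For bursting, the authors' deposited tables give a mean UMI count and K with its limits for each gene, which the headers tie to a beta-Poisson model.

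Cells were filtered, the tag row was dropped, and counts were summed per library and scaled to the library total. No doublet caller was run. Ratios used a pseudocount of 1 CPM and genes with a mean of at least 10 CPM. Intervals are exact 95% Poisson or binomial intervals, for counting error only. Cell cycle phases were scored after thinning every cell to 5000 UMIs. GENCODE v44 gave positions for 36366 of 36601 genes. The 35 gene lists and the members were chosen with earlier results of these data known. By rule, the genes named were POLR2A, the 12 with the largest ratio in each direction, up to 4 past 2-fold per list, up to 5 in each direction for detection, burst frequency and burst size, and up to 4 of the most abundant per described region. Any other gene named, and the regions and the trio of noncoding RNAs, were chosen after their values were seen. The scripts were tested on simulated data. Alternatives covered scaling, level filters, the pseudocount, cell filters, thinning and the minimum burst mean. The tools were Python 3.11.15 with scipy 1.17.1, numpy 2.4.6, pandas 2.3.3 and matplotlib 3.10.9, and R 4.3.3 with edgeR 4.0.16 for TMM factors only.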

Additional observations from a re-analysis of the deposited data

Results flagged for a closer look

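Of 69 genes named by ratio or list, 7 had ratios of opposite sign in the HaloTag and Dendra2 pairs with both counting intervals excluding equality. SERPINE2, TGFB2, LATS2 and OCLN were also of opposite sign, with counting intervals in the Dendra2 pair that include equality. The difference between the pairs was not tested. Of the 7, those higher in HaloTag 25R were MMP3, DDIT3, CTSB and NQO1, with log2 ratios in the Dendra2 pair of −0.37, −0.69, −0.19 and −0.12. Those lower in HaloTag 25R were F2R, MT-ATP8 and MT-ND6, with log2 ratios in the Dendra2 pair of 0.26, 0.10 and 0.63. The HaloTag tag transcript, left out of all comparisons, was detected in 455 cells of 25R (13.1%) and 531 cells of 52R (14.3%).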

How the results depend on the processing

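Scaling, cell filters and thinning left the number of genes past 2-fold between 169 and 226 on the higher side (175 as reported) and between 225 and 327 on the lower side (265 as reported). A pseudocount of 5 CPM gave 121 higher and 174 lower genes. With a mean of at least 1 CPM there were 470 higher and 580 lower genes, and with no filter 516 and 598, since more genes were tested. Detection counts (262 higher and 312 lower) became 1044 and 401 without thinning, when the deeper 25R cells keep their extra UMIs, and 141 and 131 at 2500 UMIs. Burst frequency (25 higher and 31 lower) gave 835 and 802 genes when a mean of at least 0.1 was enough, and burst size (146 higher and 75 lower) 1191 and 922. With size divided by its median ratio, 86 genes were higher and 107 lower. Without thinning, 31.1% of 25R cells and 33.8% of 52R cells were called S, and 22.1% of 25R cells and 24.7% of 52R cells G2/M. The median ratio of all tested genes was −0.01 with TMM factors, 0.02 with median-of-ratios factors and −0.07 without mitochondrial UMIs. Of 96 list medians recomputed, 81 stayed within 0.1. Of the others, 12 were in cells called neither S nor G2/M and 3 were with a mean of at least 1 CPM. In cells called neither, the median turned positive for both phase lists, at 0.80 over the 54 G2/M genes and 0.16 over the 39 S phase genes. Further lists that turned positive were intermediate filaments (−0.18 to 0.02), histone processing factors (−0.09 to 0.002) and nuclear long noncoding RNAs (−0.09 to 0.001). Values for named genes were recomputed only for the 24 with the largest ratios, 12 in each direction. Of these values, 219 were close to those reported, 45 moved and none changed sign. Ratios this far from 0 could hardly change sign, and genes nearer 2-fold were not among them. No paired analysis was possible because each genotype is 1 library, whose replicate numbers are sequencing runs merged in the deposited matrix. A gene near 10 CPM rests on at least 1104 UMIs, and the spread between cultures of 1 genotype was not measured.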
